A study of Mus musculus with 10 samples.

Results

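The genes described here encode the core of the Polycomb repressive complexes and the enzymes that oppose them, measured in mouse morulae after depletion of Mettl3. They are 10 genes, taken by name from the 24411 genes in the deposited tables: Ezh1, Ezh2, Eed, Suz12, Jarid2 and Aebp2 of Polycomb repressive complex PRC2, Rnf2 and Ring1 of PRC1, and the H3K27 demethylases Kdm6a and Kdm6b. The rule goes by name and uses no measured value. All embryos came from in vitro fertilization of superovulated mouse oocytes, were injected as zygotes at 3 to 6 h after insemination and were cultured in KSOM medium to the morula stage at 72 h. The Mettl3-ASO group (5 libraries) received an antisense oligonucleotide (ASO) directed against Mettl3, and the ASO-Control group (5 libraries) a non-targeting one. Each library pooled 10 embryos, so embryos of both sexes may be mixed. Replicates 3 to 5 of both groups carry the tag batch 2; replicates 1 and 2 carry no batch tag, are given as strain ICR and are called untagged here. The labels of the batch 2 libraries give no strain.

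PRC2 methylates histone H3 at the lysine named H3K27, and the trimethylated form, H3K27me3, marks silenced genes. EZH1 and EZH2 are its alternative catalytic subunits, EED and SUZ12 are needed for the complex to be active, and JARID2 and AEBP2 are accessory subunits that occur together in one form of it. PRC1 carries RING1 or RNF2, which attach ubiquitin to histone H2A, while KDM6A and KDM6B remove methyl groups from H3K27. In the mouse preimplantation embryo, H3K27me3 inherited from the oocyte silences the maternal allele of a set of imprinted genes, Xist among them. METTL3 is the catalytic subunit of the complex that writes N6-methyladenosine (m6A) into RNA; m6A, histone marks and proteins were not measured here.

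Levels are given as FPKM, fragments scaled to transcript length and sequencing depth, and fold changes as log2 of Mettl3-ASO over ASO-Control from counts, with their standard error (SE). Libraries held 9905830 to 13530284 expected counts where untagged, and batch 2 libraries 21412857 to 32327283. Mettl3 averaged 0.014 ± 0.0195 FPKM in Mettl3-ASO and 8.86 FPKM in ASO-Control, a log2 fold change of -8.72 ± 0.45 (edgeR, adjusted p = 6.6e-08). Of 11 morula markers, 10 were tested. The pluripotency and germline genes Nanog and Dppa3 rose, while Pou5f1 and the trophectoderm genes Cdx2, Gata3, Krt8 and Krt18 fell. The 11 summed to 36445 to 59250 FPKM in Mettl3-ASO libraries and 31138 to 42236 FPKM in ASO-Control libraries. Nearly all of that sum was Dppa3, at 22837 to 44271 FPKM in Mettl3-ASO and 15998 to 25892 FPKM in ASO-Control, and Dppa5a, which was not called. The sum therefore does not describe the markers as a set. Cumulus cell markers, which would report maternal cells carried over, summed to 0.3 to 1.27 FPKM in Mettl3-ASO and 0.09 to 0.59 FPKM in ASO-Control over 10 genes, with 5 at 0 in every library of each group, Has2, Ptgs2, Amh and Inhba in both. Of 10 genes typical of the 2-cell stage, 9 were tested and 9 rose, with summed levels of 588 to 2065 FPKM in Mettl3-ASO and 3.11 to 13.6 FPKM in ASO-Control. Most averaged below 1 FPKM in ASO-Control, such as Zscan4c at 0.168 FPKM. These were tested only because they were high in Mettl3-ASO, so the count is no independent result. Zscan4c, Zscan4d and Zscan4f were at only 0.28 to 0.51 FPKM in Mettl3-ASO replicates 3 and 5. Mettl3-ASO replicate 1 stood apart from its group, with 137 FPKM of the keratin gene Krt8 beside 13.3 to 24.6 FPKM in Mettl3-ASO replicates 2 to 5 and 60.2 to 315 FPKM in ASO-Control. Several results that it moved, though not all, are therefore given with and without it. Because RNA was taken from whole embryos, fewer cells of a type and less RNA per cell cannot be told apart in any value below. The part of the shift in stage-specific genes in these results was not tested.

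Among the 10 genes, Jarid2 and Kdm6b fell, and 8 did not pass the test (edgeR, Benjamini-Hochberg adjusted p under 0.05 over 9522 tested genes). Ring1 had an unadjusted p of 0.0294 in the direction of a rise and was called by DESeq2. All 10 met the filter on low values, a mean of at least 1 FPKM over the 10 libraries. The background was high: 49.4% of tested genes were called, 25.4% as higher and 24.0% as lower in Mettl3-ASO. The 2 called of 10 are a smaller share than that. The median absolute log2 fold change was 0.23 over the 10 genes and 0.51 over all tested genes, and 7 of the 10 lay within 0.4 of 0. In 0 of 10 did the FPKM ranges of the groups separate, compared with 25.6% of tested genes.

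**Figure D1:**
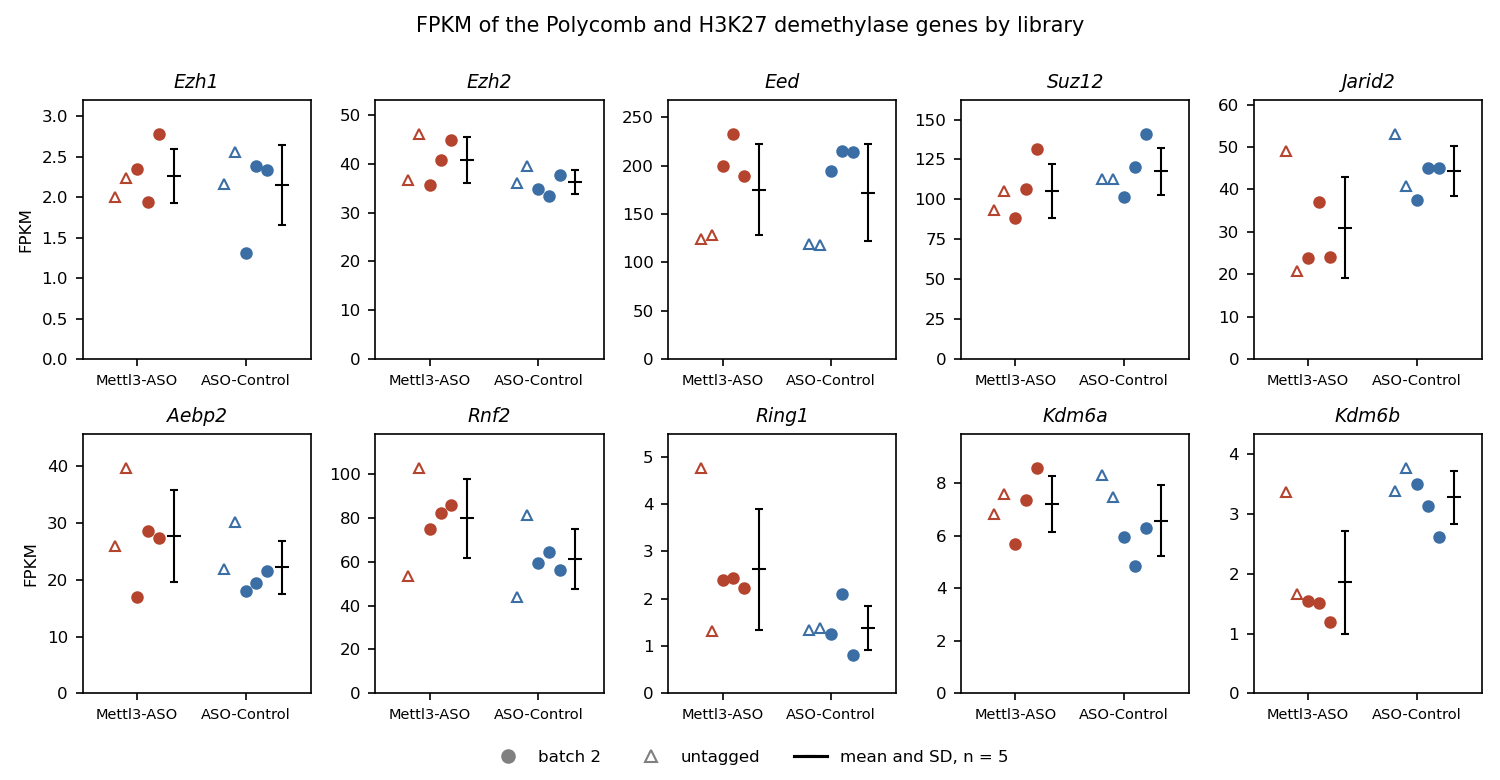
FPKM of each of the 10 genes in each library, Mettl3-ASO left and ASO-Control right in every panel, on linear axes that start at 0; circles are batch 2 libraries, triangles untagged libraries, and bars the mean and SD of 5 libraries. The Kdm6b panel shows 4 Mettl3-ASO libraries at 1.2 to 1.66 FPKM, below the lowest ASO-Control library at 2.61, and replicate 1 at 3.37.

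The catalytic pair was represented almost wholly by Ezh2. Ezh2 was at 36.58, 46.1, 35.6, 40.66 and 44.82 FPKM in Mettl3-ASO replicates 1 to 5, against 36.07, 39.58, 34.85, 33.37 and 37.62 FPKM in ASO-Control. The ranges overlapped, 3 Mettl3-ASO libraries lay above all ASO-Control libraries, and the log2 fold change was 0.13 ± 0.13 (edgeR, adjusted p = 0.447). Ezh1, whose product makes PRC2 with weaker methyltransferase activity, was at 2.0, 2.24, 2.35, 1.94 and 2.78 FPKM in Mettl3-ASO, against 2.16, 2.56, 1.31, 2.39 and 2.33 FPKM in ASO-Control. Its groups overlapped almost entirely, on 89 to 305 counts per library, and its log2 fold change of 0.04 ± 0.23 did not pass the test (edgeR, adjusted p = 0.907).

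Per length, Ezh2 exceeded Ezh1 in every library. The ratio of their FPKM was 15.1 at the lowest, 18.3 at the median and 20.96 at the highest in Mettl3-ASO, against 14.0, 16.1 and 26.6 in ASO-Control. Ezh1 made up 4.55% to 6.19% of the summed Ezh1 and Ezh2 FPKM in Mettl3-ASO libraries and 3.62% to 6.68% in ASO-Control libraries. The log2 ratio of Ezh1 to Ezh2 averaged -4.18 ± 0.21 in Mettl3-ASO and -4.11 ± 0.36 in ASO-Control (SD, n = 5 each), a difference of -0.06. A two-sided exact permutation test within batches gave p = 0.767 (adjusted p = 0.767 over 3 ratios), where 120 relabellings allow no p below 0.0167.

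Both genes lie on the minus strand in GRCm38, Ezh1 at 11:101191115-101226463 and Ezh2 at 6:47530139-47595341. Their promoters are printed because the pair differed more than 10-fold in level in every library while both start sites are rich in CG. The windows run from 250 bases before to 50 bases after the annotated start, on the gene's strand, from RefSeq (GRCm38.p6), chr11:101226414-101226713 for Ezh1 and chr6:47594981-47595280 for Ezh2; capitals mark each CG dinucleotide.
Ezh1: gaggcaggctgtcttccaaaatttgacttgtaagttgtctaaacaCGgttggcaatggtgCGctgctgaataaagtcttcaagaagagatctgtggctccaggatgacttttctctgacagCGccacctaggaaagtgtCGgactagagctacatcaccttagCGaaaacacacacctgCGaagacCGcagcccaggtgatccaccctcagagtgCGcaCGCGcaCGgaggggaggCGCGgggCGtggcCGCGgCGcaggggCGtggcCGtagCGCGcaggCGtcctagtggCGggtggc
Ezh2: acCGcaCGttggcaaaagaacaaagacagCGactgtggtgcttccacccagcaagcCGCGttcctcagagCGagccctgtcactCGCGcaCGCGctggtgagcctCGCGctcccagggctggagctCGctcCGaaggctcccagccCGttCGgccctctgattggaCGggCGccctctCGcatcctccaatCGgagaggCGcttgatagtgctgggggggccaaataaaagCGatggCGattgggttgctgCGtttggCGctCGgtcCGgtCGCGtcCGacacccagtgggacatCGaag
The Ezh1 window holds 23 CG dinucleotides, 0.88 of the number its base composition gives, and the Ezh2 window 31, a ratio of 1.0. Over 32851 promoters in the RefSeq table the median was 7 CG dinucleotides and a ratio of 0.38, and 35.8% had a ratio of at least 0.6. Of 12 promoters listed for 9 of the 10 genes, 10 had such a ratio. On either strand, the E2F motif TTTGGCGC occurred once, in the Ezh2 window, and in 0.514% of all promoters; TTTCCCGC occurred in the Suz12 window and in 1.07% of all promoters. The third E2F form searched, TTTCGCGC, was in none of the 12 windows and in 0.323% of all promoters. CCAAT was in 6 of the 12 windows and 37.4% of all promoters, and CGCG in 8 windows and 38.0% of all promoters. Exact consensus motifs of YY1 (0.633% of all promoters) and NRF1 (0.615%) were in none of the 12.

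Eed and Suz12 did not pass the test over all libraries. Eed, whose protein reads H3K27me3 and stimulates the enzyme, was at 124.66, 128.91, 199.77, 232.95 and 189.11 FPKM in Mettl3-ASO, against 119.2, 117.66, 195.03, 214.95 and 214.34 FPKM in ASO-Control. It was the gene with the highest mean level of the 10 in both groups, and its libraries separated by batch rather than by group: all 4 untagged libraries lay below all 6 of batch 2. Its log2 fold change was -0.01 ± 0.10 (edgeR, adjusted p = 0.957). In the annotation, 6.82% of Eed exon bases lie under exons of a gene on the opposite strand, E230029C05Rik. The sources used here do not say if fragments were counted by strand.

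Suz12, which holds the complex together, was at 93.48, 105.38, 88.32, 106.4 and 131.75 FPKM in Mettl3-ASO, against 112.65, 112.58, 101.71, 119.99 and 141.01 FPKM in ASO-Control. The groups overlapped, yet each Mettl3-ASO library was below the ASO-Control library with the same replicate number. The log2 fold change of -0.21 ± 0.14 did not pass the test (edgeR, adjusted p = 0.222), whereas with the replicate number as a block it was -0.22 (edgeR, adjusted p = 0.0458). That block, here and below, rests on a pairing taken from these same data. The TPM of Ezh1, Ezh2, Eed and Suz12 together came to 334 ± 44.9 in Mettl3-ASO and 335 ± 48.7 in ASO-Control (SD, n = 5 each; exact permutation test, two-sided, p = 0.983). Of the remaining core subunits, the histone-binding Rbbp7 averaged 380 ± 91.6 FPKM in Mettl3-ASO and 600 ± 186 FPKM in ASO-Control and fell by 0.69 ± 0.23 on the log2 scale (edgeR, adjusted p = 0.0271). That call was lost within batch 2, within the untagged libraries and, at -0.63 to -0.49, without any of Mettl3-ASO replicates 1 and 4 or ASO-Control replicates 1 and 3. In the annotation 6.97% of the 50-base words of its transcripts are shared with Gm6382. Rbbp4, its paralog, had a log2 fold change of -0.25 ± 0.13 and did not pass.

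The accessory subunits moved unequally. Jarid2, which helps bring PRC2 to chromatin, was at 49.13, 20.83, 23.82, 37.08 and 24.01 FPKM in Mettl3-ASO, against 53.08, 40.78, 37.45, 44.98 and 45.03 FPKM in ASO-Control. Mettl3-ASO replicates 2 to 5 all lay below the lowest ASO-Control library, replicate 4 by the least, and replicate 1 lay above 4 of the 5 ASO-Control libraries. Jarid2 fell by 0.59 ± 0.19 on the log2 scale, to 0.665 of the ASO-Control level (edgeR, adjusted p = 0.0185). Without Mettl3-ASO replicate 1 the change was -0.77 ± 0.16 (edgeR, adjusted p = 0.00203), and over the 10 fits that left out 1 library the adjusted p reached at most 0.0499. Within batch 2 it was -0.63 ± 0.18 (edgeR, adjusted p = 0.0212) and within the untagged libraries -0.51 ± 0.35 (edgeR, adjusted p = 0.393).

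Aebp2, a zinc finger subunit, was at 25.99, 39.68, 16.94, 28.53 and 27.43 FPKM in Mettl3-ASO, against 21.9, 30.15, 18.1, 19.42 and 21.48 FPKM in ASO-Control. It was higher in Mettl3-ASO in 4 of the 5 same-numbered pairs, the groups overlapped, and the log2 fold change of 0.25 ± 0.18 did not pass (edgeR, adjusted p = 0.263). Among the other accessory subunits, the Polycomb-like gene Mtf2 had a log2 fold change of 0.09 ± 0.15, and E130012A19Rik, also known as Epop, of -0.39 ± 0.25, neither of which passed.

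The accessory gene with the largest change was AU022751, known in RefSeq as Ezhip, whose protein inhibits the catalytic activity of PRC2. It was at 25.96, 20.58, 16.26, 11.54 and 13.39 FPKM in Mettl3-ASO, against 5.62, 6.86, 3.11, 3.22 and 2.06 FPKM in ASO-Control. All Mettl3-ASO libraries lay above all ASO-Control libraries, and the gene rose by 2.07 ± 0.19 on the log2 scale (edgeR, adjusted p = 5.45e-06), also within batch 2 and within the untagged libraries. Jarid2 lies on the plus strand at 13:44729474-44921643 and AU022751 on the minus strand at X:6081219-6083419. Their promoter windows, chr13:44730524-44730823 for the first of the start sites RefSeq lists for Jarid2 and chrX:6083371-6083670 for AU022751, are printed as those of the accessory genes that changed in opposite directions, with CG dinucleotides in capitals as before.
Jarid2: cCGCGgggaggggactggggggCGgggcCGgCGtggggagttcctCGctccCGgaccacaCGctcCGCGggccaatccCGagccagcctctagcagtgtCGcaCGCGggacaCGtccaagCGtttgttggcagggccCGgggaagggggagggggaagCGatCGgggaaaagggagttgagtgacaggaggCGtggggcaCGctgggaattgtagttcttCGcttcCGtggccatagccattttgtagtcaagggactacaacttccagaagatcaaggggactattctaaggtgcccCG
AU022751: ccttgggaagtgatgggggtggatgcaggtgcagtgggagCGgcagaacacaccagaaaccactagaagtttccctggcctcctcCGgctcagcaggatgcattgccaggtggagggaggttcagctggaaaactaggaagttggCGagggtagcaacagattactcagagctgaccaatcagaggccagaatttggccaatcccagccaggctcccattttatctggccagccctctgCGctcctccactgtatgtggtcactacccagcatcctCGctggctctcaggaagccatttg
The Jarid2 window holds 24 CG dinucleotides, a ratio of 0.81 to its base composition, and the AU022751 window 5, a ratio of 0.21 that is below the median of all promoters. Promoter activity itself was not measured.

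Of the PRC1 enzymes, Rnf2 was the abundant one. Rnf2 was at 53.24, 102.54, 74.93, 82.17 and 85.67 FPKM in Mettl3-ASO, against 43.86, 81.36, 59.53, 64.42 and 56.09 FPKM in ASO-Control. Each Mettl3-ASO library was above the ASO-Control library of its number, although the group ranges overlapped. Over all libraries the log2 fold change was 0.35 ± 0.21 and did not pass (edgeR, adjusted p = 0.173). It passed with the replicate number as a block (0.34, edgeR, adjusted p = 0.00878), within batch 2 (0.40 ± 0.13, edgeR, adjusted p = 0.0299) and without Mettl3-ASO replicate 1 (0.51 ± 0.17, edgeR, adjusted p = 0.0211).

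Ring1 was at 4.76, 1.32, 2.39, 2.43 and 2.22 FPKM in Mettl3-ASO, against 1.34, 1.39, 1.26, 2.09 and 0.82 FPKM in ASO-Control. In Mettl3-ASO, 4 libraries lay above all ASO-Control libraries and replicate 2 lay among them, on only 24 to 121 counts per library. The log2 fold change of 0.85 ± 0.35 was close to the threshold (edgeR, adjusted p = 0.0578) and depended on single libraries. It was 0.54 without Mettl3-ASO replicate 1 (edgeR, adjusted p = 0.206), and it passed without Mettl3-ASO replicate 2 (1.0009, edgeR, adjusted p = 0.0222) or ASO-Control replicate 4 (1.09, edgeR, adjusted p = 0.0264), and in DESeq2 (0.84, adjusted p = 0.0455).

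Rnf2 exceeded Ring1 per length by 11.2 to 77.7-fold in Mettl3-ASO, with a median of 33.8, and by 30.8 to 68.4-fold in ASO-Control, with a median of 47.2. The log2 ratio of Ring1 to Rnf2 differed by 0.48 between the groups, within the spread of the libraries (exact permutation test within batches, two-sided, p = 0.45, adjusted p = 0.675). Without Mettl3-ASO replicate 1 the difference was 0.0094.

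Of the demethylases, Kdm6b fell and Kdm6a did not pass the test. Kdm6b, which is known for responding to signals and inducing genes, was at 3.37, 1.66, 1.55, 1.51 and 1.2 FPKM in Mettl3-ASO, against 3.38, 3.77, 3.51, 3.13 and 2.61 FPKM in ASO-Control. Mettl3-ASO replicates 2 to 5 all lay below every ASO-Control library, and replicate 1 was close to the ASO-Control median of 3.38 FPKM. Kdm6b fell by 0.93 ± 0.20 on the log2 scale, to 0.524 of the ASO-Control level (edgeR, adjusted p = 0.00222). Without Mettl3-ASO replicate 1 the change was -1.12 ± 0.18 (edgeR, adjusted p = 0.000274). It was -1.15 ± 0.23 within batch 2 (edgeR, adjusted p = 0.0031) and -0.58 ± 0.38 within the untagged libraries (edgeR, adjusted p = 0.359). Of its exon bases, 4.11% lie under the opposite-strand gene Kdm6bos.

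Kdm6a, an X-linked gene that escapes X inactivation, was at 6.82, 7.58, 5.67, 7.34 and 8.57 FPKM in Mettl3-ASO, against 8.31, 7.46, 5.94, 4.83 and 6.29 FPKM in ASO-Control. The groups overlapped throughout, and the log2 fold change was 0.11 ± 0.17 (edgeR, adjusted p = 0.627). Its Y-linked counterpart Uty was below the filter, at 0.09 to 0.94 FPKM in Mettl3-ASO libraries and 0.34 to 1.12 FPKM in ASO-Control libraries. The summed level of 4 Y-linked genes ran from 19.8 to 29.9 FPKM in Mettl3-ASO and from 12.9 to 85.1 FPKM in ASO-Control. Of the 2 tested, Eif2s3y fell by 1.20 ± 0.29 on the log2 scale (edgeR, adjusted p = 0.00482) and Ddx3y was not called (-0.16 ± 0.29). In batch 2, Eif2s3y was at 16.57 to 21.72 FPKM in Mettl3-ASO and 42.9 to 65.8 FPKM in ASO-Control. The labels give no sex for the pools. The part of embryo sex in the X-linked values was not tested.

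The FPKM of Kdm6a over that of Kdm6b was 2.02 at the lowest, 4.57 at the median and 7.14 at the highest in Mettl3-ASO, against 1.54, 1.98 and 2.46 in ASO-Control. Only the Mettl3-ASO replicate 1 ratio fell within the ASO-Control range. On the log2 scale the ratio averaged 2.04 ± 0.67 in Mettl3-ASO and 0.99 ± 0.30 in ASO-Control (SD, n = 5 each), a difference of 1.05. The exact permutation test within batches gave p = 0.0333, two-sided, which is 0.1 after adjustment over the 3 ratios tested. Without Mettl3-ASO replicate 1 the difference was 1.31 (exact permutation test, adjusted p = 0.05). In neither setting can a single ratio reach an adjusted p under 0.05 over 3 ratios, because the relabellings allow no p below 0.0167. The adjusted values therefore do not decide whether this ratio changed.

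**Figure D2:**
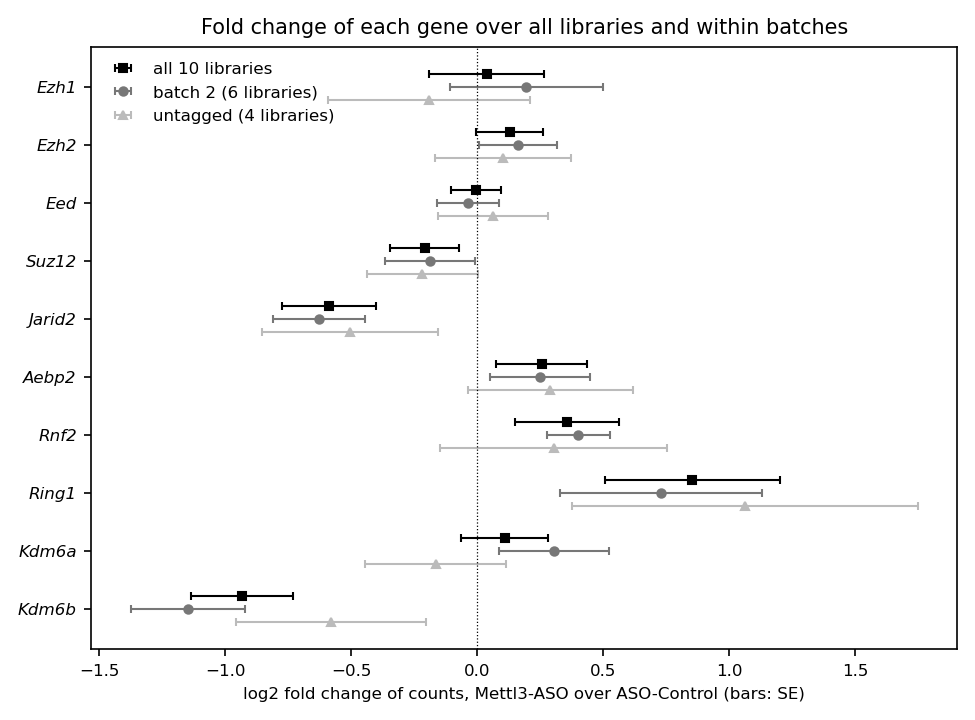
The log2 fold change of counts, Mettl3-ASO over ASO-Control, of the 10 genes over all 10 libraries (squares), within batch 2 (circles) and within the untagged libraries (triangles); bars are SE. Jarid2, Suz12 and Kdm6b lie left of 0 in all 3 fits, while Ezh1, Eed and Kdm6a have opposite signs in the 2 batches.

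Within batch 2, 3 of the 10 genes were called beside 39.0% of tested genes: Jarid2 and Kdm6b fell (background 18.9%) and Rnf2 rose (background 20.2%). Within the untagged libraries 0 were called, with 0 at an unadjusted p under 0.05 (edgeR), beside 6.26% of tested genes, 3.79% as higher and 2.47% as lower. With the replicate block 4 were called beside 55.1%: Suz12, Jarid2 and Kdm6b fell (background 27.5%) and Rnf2 rose (background 27.6%). Without Mettl3-ASO replicate 1 the count was 3 beside 50.4%, with Jarid2 and Kdm6b lower (background 24.6%) and Rnf2 higher (background 25.8%). The difference of the effect between batches was tested as an interaction. It passed in 0 of 9522 genes (edgeR, adjusted p under 0.05), with 159 genes and 0 of the 10 at an unadjusted p under 0.05.

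By mean level, Eed, Suz12 and Rnf2 led in both groups. In Mettl3-ASO the order ran Eed (175 ± 47.0 FPKM), Suz12, Rnf2, Ezh2, Jarid2, Aebp2, Kdm6a, Ring1, Ezh1 and Kdm6b (1.86 ± 0.862 FPKM). In ASO-Control it ran Eed (172 ± 49.8 FPKM), Suz12, Rnf2, Jarid2, Ezh2, Aebp2, Kdm6a, Kdm6b, Ezh1 and Ring1 (1.38 ± 0.457 FPKM). Neighbours whose library ranges did not overlap were Rnf2 and Ezh2, Aebp2 and Kdm6a, and Kdm6a and Ring1 in Mettl3-ASO. In ASO-Control they were Suz12 and Rnf2, Ezh2 and Aebp2, Aebp2 and Kdm6a, Kdm6a and Kdm6b, and Kdm6b and Ezh1. All other neighbours overlapped. Jarid2 thus averaged 31.0 ± 11.9 FPKM, below Ezh2 at 40.8 ± 4.72 FPKM, in Mettl3-ASO, and 44.3 ± 5.86 FPKM, above Ezh2 at 36.3 ± 2.41 FPKM, in ASO-Control (SD, n = 5 each).

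The abundance-weighted transcript length deposited for each gene can show a change of isoform. It was constant for 6 of the 10 genes, which have 1 transcript in the tables, and varied for Ezh2, Suz12, Jarid2 and Aebp2. Aebp2 varied most, with 5305 to 5531 bases in Mettl3-ASO and 5404 to 5600 bases in ASO-Control. No length difference passed the exact permutation test after adjustment over the 10 genes. The lowest adjusted p was 0.25, for Ezh2 and Suz12 (exact permutation test, unadjusted p = 0.05 for each). The smallest p this test allows was 0.0167, so a change in a single gene could not pass after the adjustment. No conclusion on isoforms is drawn from it.

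The sequence GGACT, a common form of the motif that METTL3 methylates, was counted on the sense strand of the longest protein-coding transcript. Jarid2 had 7 (1.17 per kilobase) and Kdm6b 6 (0.902 per kilobase), more than any of the other 8 genes by either measure. Suz12 had 0. Of the 10 genes, 9 were below the median of 1.02 per kilobase over 8831 tested genes with a matched transcript, whose quartiles were 0.596 and 1.52. No m6A was measured, so these are counts of letters.

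Of 60 other Polycomb genes in the wider lists, 41 were tested, and 13 rose while 4 fell, with a median log2 fold change of 0.25 beside 0.01 for all tested genes. The calls, 41.5% of those tested, were below the 49.4% of the background. By direction, 31.7% rose beside 25.4% of all tested genes, and 9.8% fell beside 24.0%. Group ranges did not overlap in 9 of the 41 (22.0%), below the 25.6% of all tested genes. Within batch 2, 12 rose and 2 fell, beside 20.2% of all tested genes called as higher and 18.9% as lower. Within the untagged libraries the genes that rose were AU022751, Kdm2b, Bcor and Mbd5, and 0 fell. There 3.79% of all tested genes were called as higher and 2.47% as lower.

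Variant PRC1, which contains RYBP or YAF2 in place of the chromobox proteins, held 20 tested genes of 23, of which 7 rose and 3 fell (median log2 fold change 0.35). The 10 called of 20 are at the background of 49.4%, with 35.0% higher beside 25.4% and 15.0% lower beside 24.0% of all tested genes. Kdm2b, which brings variant PRC1 to unmethylated CG islands, averaged 41.0 ± 6.67 FPKM in Mettl3-ASO and 19.3 ± 3.60 FPKM in ASO-Control and rose by 1.04 ± 0.14 on the log2 scale (edgeR, adjusted p = 7.35e-05). Bcor, its partner in the same complex, was at 3.34, 2.92, 1.95, 2.48 and 2.93 FPKM in Mettl3-ASO, against 0.93, 0.57, 0.67, 0.34 and 0.58 FPKM in ASO-Control, and rose by 2.08 ± 0.24. For both genes the groups did not overlap. Bcor, at a mean of 0.618 FPKM in ASO-Control, passed the filter only through its Mettl3-ASO levels, and rose by 2.03 ± 0.27 in a fit with no filter. Pcgf5, a defining subunit of another variant form, was at 63.48, 269.57, 165.77, 153.36 and 292.79 FPKM in Mettl3-ASO, against 76.31, 75.84, 88.48, 67.62 and 72.66 FPKM in ASO-Control. It rose by 1.29 ± 0.33 with Mettl3-ASO replicate 1 below every ASO-Control library, and by 1.55 ± 0.20 without that replicate (edgeR, adjusted p = 4.89e-05).

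Pcgf6, Rybp, Yaf2 and Csnk2a2 rose by 0.51 to 0.81 on the log2 scale, the call of Csnk2a2 being lost without ASO-Control replicate 3 (0.45). The transcription factor subunits Tfdp1 and E2f6, and Csnk2b, a regulatory subunit of casein kinase, fell, the call of E2f6 being lost within either batch. Tfdp1 was at 24.04 to 49.02 FPKM in Mettl3-ASO and 69.64 to 92.3 FPKM in ASO-Control, a log2 fold change of -1.30 ± 0.13 (edgeR, adjusted p = 1.06e-05), and 16.8% of its 50-base words are shared with Gm7390.

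In canonical PRC1, 7 of 14 genes were tested and 2 rose: Bmi1 by 0.57 ± 0.18 and Scmh1 by 0.69 ± 0.22 on the log2 scale. The 28.6% that rose is near the background of 25.4%. Both calls were lost within batch 2 (Bmi1 0.40, edgeR, adjusted p = 0.176; Scmh1 0.66, edgeR, adjusted p = 0.136) and within the untagged libraries, and that of Scmh1 also with no filter on low values (edgeR, adjusted p = 0.0991). They were lost too when single libraries were left out, Bmi1 without Mettl3-ASO replicate 2 or 5 or ASO-Control replicate 1 or 2 (0.44 to 0.55), and Scmh1 without replicate 3 of either group (0.59 to 0.63). Of the chromobox genes, whose proteins read H3K27me3, only Cbx8 passed the filter, at 1.16 to 5.59 FPKM in Mettl3-ASO and 0.72 to 2.14 FPKM in ASO-Control, and it was not called.

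The complex that removes the PRC1 mark from histone H2A held 7 tested genes of 11, of which 2 rose (28.6%, near the background of 25.4%). Mbd5 was at 1.37, 3.92, 1.76, 2.4 and 5.53 FPKM in Mettl3-ASO, against 0.05, 0.17, 0.26, 0.23 and 0.19 FPKM in ASO-Control, and rose by 4.08 ± 0.43 on the log2 scale (edgeR, adjusted p = 1.44e-05). It passed the filter only through its Mettl3-ASO levels, and rose by 4.03 ± 0.30 in a fit with no filter. Kdm1b rose by 0.73 ± 0.19, whereas the catalytic subunit Bap1 had a log2 fold change of 0.25 ± 0.18 and did not pass. In the list of the demethylases and their partners, 6 of 8 were tested and 33.3% called, below the background of 49.4%. Kdm6b fell and Pagr1a, which joins KDM6A in its complex, rose by 0.49 ± 0.15, a call lost within the untagged libraries and with no filter.

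**Figure D3:**
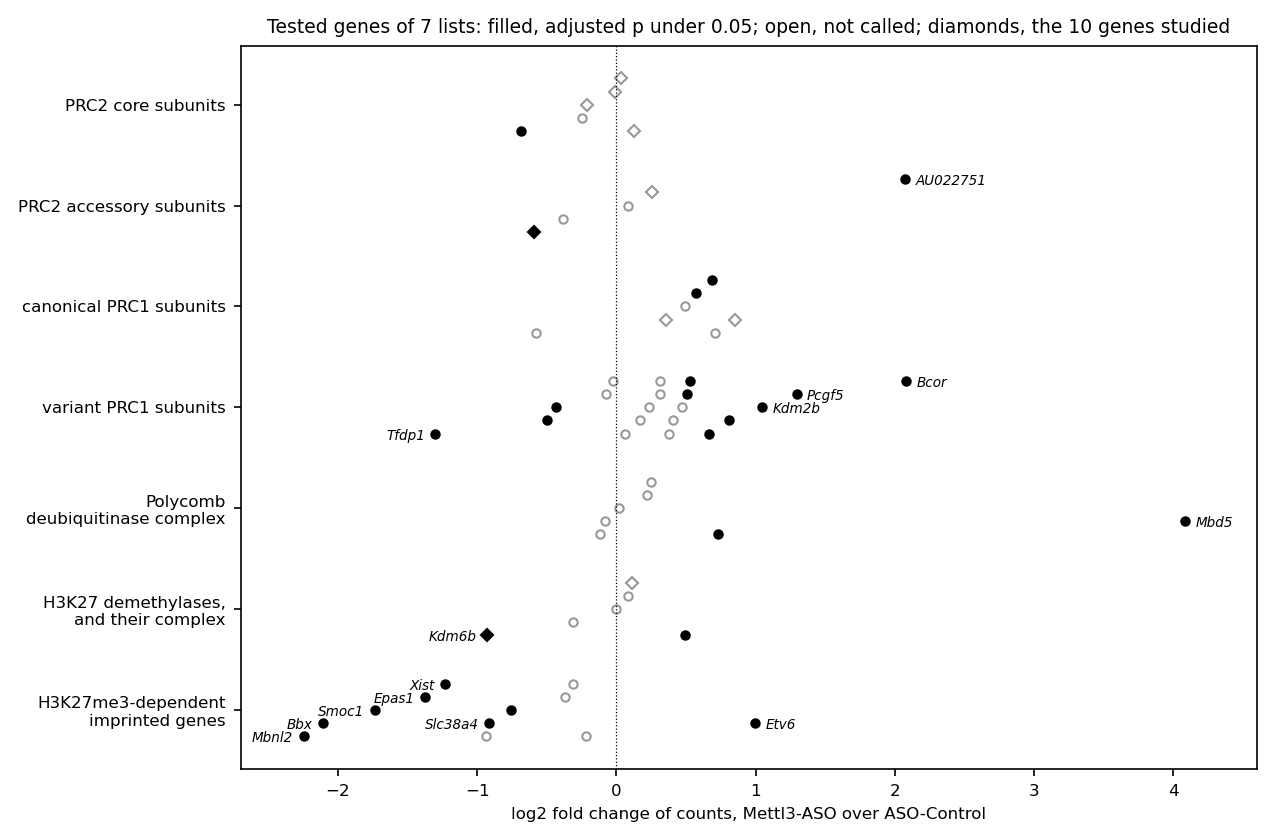
The log2 fold change of counts, Mettl3-ASO over ASO-Control, of every tested gene of 7 lists, with filled symbols for adjusted p under 0.05, open symbols for genes not called, and diamonds for the 10 genes described; height within a list has no meaning. The diamonds stay close to 0 except Kdm6b at -0.93, Ring1 at 0.85 and Jarid2 at -0.59, while AU022751, Bcor and Mbd5 lie at 2.07 or above.

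Genes whose maternal allele is silenced by H3K27me3 fell more often than they rose. Of 13, 12 were tested, 7 fell and 1, Etv6, rose; the median log2 fold change was -0.93, beside 0.01 for all tested genes and beside 24.0% of tested genes called as lower. The groups did not overlap in 5 of the 12 tested (41.7%), beside 25.6% of all tested genes. Smoc1, counted among the 5 and among the 7, and Etv6 passed the filter only through the group where each was high. These counts are therefore in part set by the filter. With the replicate block 9 fell, Jade1 (-0.38) and Otx2 (-0.90) in addition, beside 27.5% of tested genes. Within batch 2, 7 fell, Otx2 among them but not Sfmbt2, and 0 rose, beside 18.9% of tested genes called as lower. Within the untagged libraries 3 fell, Xist, Mbnl2 and Bbx, beside 2.47% of tested genes. In a fit with no filter, all 13 were tested, 8 fell, Otx2 in addition, and 2 rose, Etv6 and Bmp7. The background there was 14.0% called as lower and 16.2% as higher. Bmp7, at a mean of 1.21 FPKM in Mettl3-ASO and 0.538 FPKM in ASO-Control, rose by 1.10 ± 0.40 (edgeR, adjusted p = 0.0222). The values are totals of both alleles, so the parental origin was not measured. The trophectoderm markers fell in the same libraries, with log2 fold changes of -1.15 ± 0.43 for Cdx2, -2.19 ± 0.37 for Gata3, -2.12 ± 0.37 for Krt8 and -2.71 ± 0.38 for Krt18, and their part in the values of the imprinted genes was not tested.

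Slc38a4, an amino acid transporter gene, was at 10.98, 11.88, 10.7, 8.75 and 8.99 FPKM in Mettl3-ASO, against 23.06, 23.23, 19.85, 13.02 and 15.82 FPKM in ASO-Control, a log2 fold change of -0.92 ± 0.15 (edgeR, adjusted p = 0.000365). Mbnl2, which encodes a splicing regulator, averaged 1.70 FPKM in Mettl3-ASO and 7.41 FPKM in ASO-Control and fell by 2.25 ± 0.25 on the log2 scale. Xist, the RNA that silences the X chromosome, was at 2.44 to 3.58 FPKM in Mettl3-ASO and 4.24 to 8.32 FPKM in ASO-Control and fell by 1.23 ± 0.21. Of Xist exon bases, 11.5% lie under opposite-strand genes, Tsix among them, and the range of the Y-linked genes given above applies to it too. Bbx fell by 2.10 ± 0.27 and Smoc1 fell by 1.73 ± 0.32. Smoc1, at a mean of 0.498 FPKM in Mettl3-ASO, passed the filter only through its ASO-Control levels. Epas1 fell by 1.37 ± 0.45, a call lost without Mettl3-ASO replicate 5 (-1.19) or ASO-Control replicate 4 (-1.04); without Mettl3-ASO replicate 1, at 9.41 FPKM beside 1.23 to 2.72 FPKM in its group, it was -1.73 ± 0.45 (edgeR, adjusted p = 0.00718). Sfmbt2 fell by 0.76 ± 0.27, a call lost in 8 of the 10 fits that left out 1 library, all but those without Mettl3-ASO replicate 5 or ASO-Control replicate 4 (-0.77 to -0.62), and within either batch. Its mean FPKM, 1.42 in Mettl3-ASO and 3.88 in ASO-Control, gave a ratio of 0.366, whereas the fit of counts gave 0.591. The cause of that disagreement was not tested. Etv6 rose by 0.997 ± 0.32 on the log2 scale, a call lost without Mettl3-ASO replicate 2 or 5 or ASO-Control replicate 3 (0.76 to 0.89), and within either batch. At a mean of 0.798 FPKM in ASO-Control, it passed the filter only through its Mettl3-ASO levels.

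**Figure D4:**
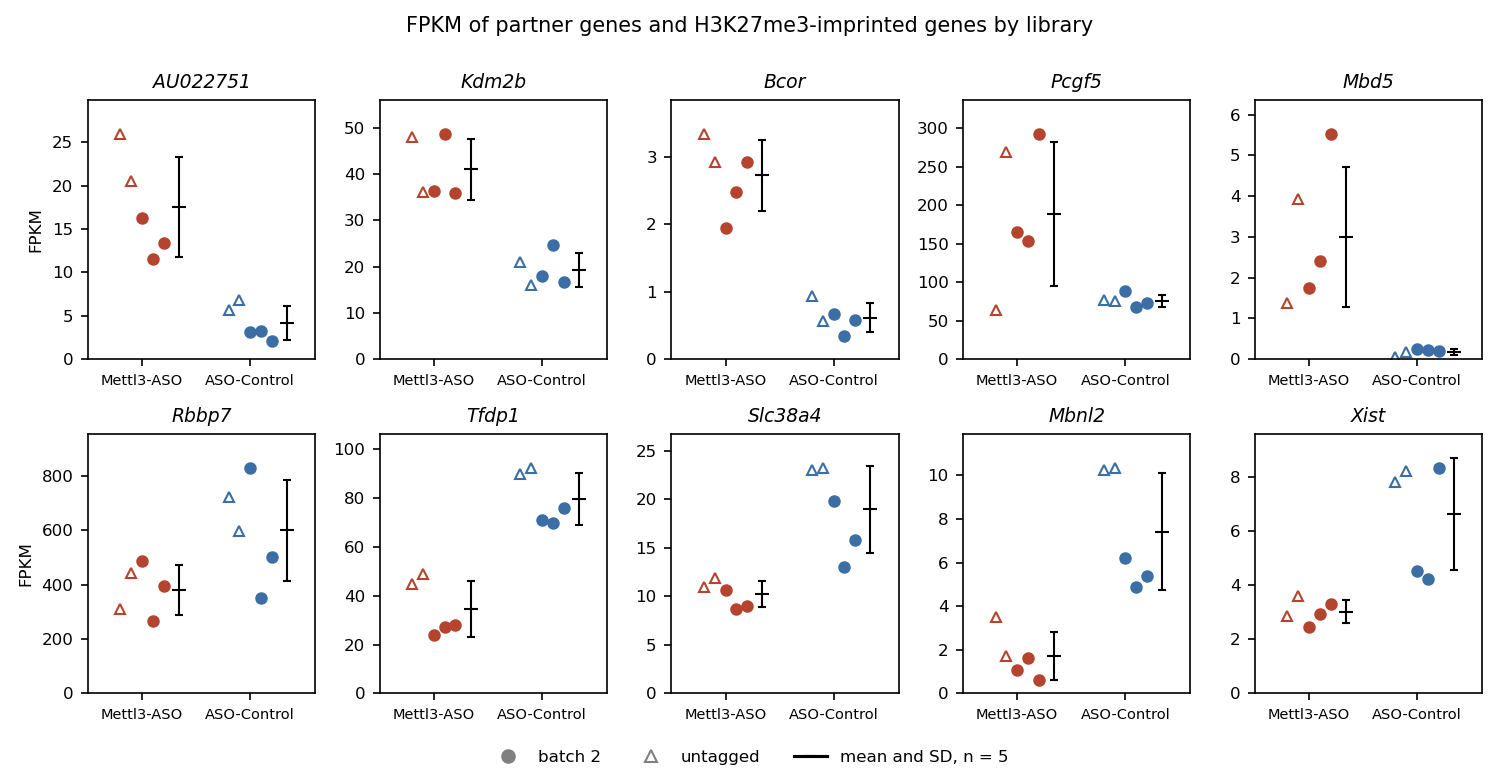
FPKM per library of 7 partner genes of the Polycomb complexes and 3 imprinted genes, Mettl3-ASO left and ASO-Control right in each panel, on linear axes that start at 0; circles are batch 2, triangles untagged libraries, bars the mean and SD of 5 libraries. AU022751, Kdm2b, Bcor and Mbd5 are higher in every Mettl3-ASO library, and Tfdp1, Slc38a4, Mbnl2 and Xist lower, whereas the groups of Pcgf5 and Rbbp7 overlap.

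Developmental genes that carry H3K27me3 in embryonic stem cells were mostly silent. Of 20, only Gata6 and Cdkn2b passed the filter, and neither was called (edgeR, 0 at an unadjusted p under 0.05). In a fit with no filter, Jarid2 and Kdm6b were again the called genes of the 10, beside 16.2% called as higher and 14.0% as lower among 19442 genes (30.2% in all). Pax6, a regulator of eye and nervous system development, was at 0.83, 1.6, 1.07, 2.76 and 1.58 FPKM in Mettl3-ASO, against 0.37, 0.44, 0.36, 0.2 and 0.05 FPKM in ASO-Control. The groups did not overlap, and in that fit it rose by 2.50 ± 0.42 on the log2 scale (edgeR, adjusted p = 3.69e-08). Gata4, an endoderm and heart transcription factor, was at 0.54 to 1.69 FPKM in Mettl3-ASO and 0.08 to 0.42 FPKM in ASO-Control, without overlap, and rose by 2.36 ± 0.49 (edgeR, adjusted p = 1.12e-05). A mean of at least 1 FPKM was reached by 4 of the 20 in Mettl3-ASO and by 2 in ASO-Control.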

How the data were processed

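RNA was measured in 10 libraries of mouse morulae, 5 Mettl3-ASO and 5 ASO-Control, grouped and numbered by their titles. Per the labels' protocols, the SMART-Seq v4 PLUS kit was used on polyadenylated RNA. STAR 2.7.10, RSEM 1.3.3 and the build mm10 are named in the submitters' processing notes, without roles or options; the annotation release and any use of strand are not given there. The authors deposited, per gene and library, expected counts (estimated reads, with multi-mapped reads shared out), TPM scaled to a common sum, FPKM scaled to length and fragments, and abundance-weighted lengths. Mitochondrially encoded genes were not analysed here.

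Expected counts were rounded and tested with edgeR 4.0.16 in R 4.3.3 (quasi-likelihood F test, TMM scaling, terms for batch and group) over the 9522 genes whose mean FPKM reached 1. Adjusted p-values are Benjamini-Hochberg over these genes, called under 0.05. The SE is the absolute log2 fold change over the square root of F. Ratios, summed TPM and lengths were compared by two-sided exact permutation within batches. The edgeR step, tested on simulated data for all 10 libraries with 9522 genes, recovered 65% of 2-fold and 95% of 4-fold changes. Only 200 genes were changed in the simulation, whereas 49.4% of tested genes were called in the data, so these rates need not carry over. Positions and GGACT counts are from GENCODE M21 and promoters from RefSeq, GRCm38.p6. Python 3.11.15 was used for the rest.

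The 10 genes, the wider lists and the rule for named genes were chosen with earlier results of these data known. By that rule, all 10 genes, Mettl3 and any called gene of a list may be named, with at least the 2 of smallest p, and any gene of a list for its level. Alternatives were other scalings and filters, DESeq2 1.42.0, limma 3.58.1 on log2(FPKM + 1), + 0.1 and + 5, each batch alone, a replicate block and each library left out. Same-numbered libraries deviated together from their group and batch means (correlations 0.273, 0.273, 0.174, 0.147 and 0.105), and the numbers were used as pairs in the replicate block. The equal values of replicates 1 and 2 are the same quantity by construction, as deviations of 2 libraries from their mean mirror each other. In batch 2, differently numbered libraries were not compared. The pairing comes from the data, not from the labels, so results of the block are tentative. No 2 libraries agreed within sampling noise (chi-square per degree of freedom of at least 19.6 in each of 8 pairs). Whether libraries stem from separate fertilizations is not in the labels, and p-values then reflect only spread between libraries, possibly technical. Fragments carry no molecular identifiers. A gene of the developmental list is not reported here.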

Additional observations from a re-analysis of the deposited data

Results flagged for a closer look

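Kdm6b in Mettl3-ASO replicate 1, at 3.37 FPKM, lay far from the other 4 Mettl3-ASO libraries at 1.2 to 1.66 FPKM. Epas1 in the same library, at 9.41 FPKM, lay far from the other 4 at 1.23 to 2.72 FPKM. These are 2 of 70 groups of 5 libraries checked over 35 genes with Dixon's test, which flags about 1 group in 20 by chance.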

How the results depend on the processing

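The untagged libraries alone, 2 against 2, recovered only 22% of simulated 2-fold changes. The simulation changed 200 of 9522 genes, so the rate need not hold for these data. With 2 libraries per group, the untagged libraries are limited in what they show. There the log2 fold changes were -0.51 for Jarid2 and -0.58 for Kdm6b, neither called, -0.19 for Ezh1, 0.061 for Eed and -0.17 for Kdm6a, 596 genes, 0 of the 10, 4 rising and 0 falling other Polycomb genes, 2 rising variant PRC1 genes and 3 falling imprinted genes were called, and the log2 Kdm6a to Kdm6b ratio differed by 0.46. Within batch 2, Rnf2 was called (0.40, and 0.40 with the replicate block, a setting chosen after seeing the data) and 2 other Polycomb genes fell. With the replicate block over all libraries Suz12 (-0.22) and Rnf2 (0.34) were also called, making 4 of the 10; the block changed no other call among the 10 or the wider Polycomb lists, while among the imprinted genes it added Jade1 and Otx2. Ring1 was called with upper-quartile scaling (0.92) and in DESeq2 (0.84). Values close to 0 changed sign: Ezh1 with quantile normalization (-0.12) and no filter (-0.016), Eed with upper-quartile scaling (0.054), limma at pseudocounts of 1 (0.033), 0.1 (0.033) and 5 (0.032), quantile normalization (0.11) and a filter at 5 FPKM (0.053), and Kdm6a with quantile normalization (-0.0090). That filter left fewer genes to test, and 1 of the 10 and 3 falling imprinted genes were called. The cause of the other shifts was not tested.

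Leaving out 1 library at a time gave log2 fold changes of -0.11 to 0.14 for Ezh1, 0.04 to 0.22 for Ezh2, -0.064 to 0.032 for Eed, -0.31 to -0.13 for Suz12, -0.77 to -0.47 for Jarid2, 0.11 to 0.37 for Aebp2, 0.16 to 0.53 for Rnf2, 0.54 to 1.09 for Ring1, -0.0028 to 0.22 for Kdm6a, -1.12 to -0.84 for Kdm6b and -9.63 to -8.37 for Mettl3. Called were 4194 to 4800 genes, 2 to 3 of the 10, 11 to 15 rising and 3 to 5 falling other Polycomb genes, 6 to 9 rising variant PRC1 genes and 6 to 7 falling imprinted genes. The log2 ratios differed by -0.23 to 0.027 (Ezh1 to Ezh2), 0.0094 to 0.94 (Ring1 to Rnf2) and 0.87 to 1.31 (Kdm6a to Kdm6b), and the summed TPM by -11.9 to 11.04. Permutation tests within 1 batch or by sign flips of pairs cannot pass the threshold, so their settings are values with no test. Across both batches, a single ratio or a single length cannot pass it after adjustment either.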
